A study of Mus musculus with 4 samples.

Results

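The insulin-like growth factor (IGF) axis was followed through 10 genes: the ligand gene Igf1, the receptor genes Igf1r and Igf2r, the adaptor gene Irs1 and the binding-protein genes Igfbp2, Igfbp3, Igfbp4, Igfbp5, Igfbp6 and Igfbp7. All probe sets that the platform annotation gives to one of these symbols alone were taken, 27 of the 45037 probe sets, and the 10 genes are among 18193 named on the array. A further probe set, annotated to both Airn and Igf2r, was left out. The genes were chosen by their measured ratios between the cultures, taken as co-culture over separate culture for knockout and wild type, so these ratios are described without a test.

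Each array held the RNA of SL4 cells, a colon carcinoma line of the mouse, and of Kupffer cells, which are liver-resident macrophages. There were 4 groups with 1 array each: Dectin-2 KO (Clec4n-/-) Kupffer cells in co-culture with SL4, wild-type Kupffer cells in co-culture with SL4, and each of these Kupffer cell genotypes, KO and then wild type, kept in a dish apart from SL4. Dectin-2, encoded by Clec4n, is a pattern-recognition receptor of myeloid cells, and only the Kupffer cells carried the deletion. In all groups the Kupffer cells were sorted as CD45+ CD11b+ cells that also carried the macrophage antigen encoded by Adgre1, from naïve female C57BL/6 mice aged 12 weeks, SL4 is likewise of C57BL/6 origin, and 100000 cells of each kind were kept for 8 hours. For the separate cultures the RNAs of both cell types were mixed before the array, so a signal cannot be assigned to one cell type, and fewer cells of a type cannot be told apart from less RNA per cell. The labels do not say how many mice gave the cells of a group.

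Signals are MAS5 intensities, and the median over all probe sets and arrays, 76.1, served as a floor below which values were not ordered. Between 10117 and 10187 genes per array lay above it. Clec4n was under the floor in every array, with 8.19 in knockout and 17.6 in wild-type co-culture and 8.29 in knockout and 14.2 in wild-type separate culture for its brighter probe set. Kupffer cell identity markers were mostly dim: of 12 on the array, 8 lay under the floor in every array, Clec4f, Vsig4 and Timd4 among them. Id3 was the brightest, at 2232 in knockout and 2210 in wild-type co-culture, against 1960 in knockout and 2140 in wild-type separate culture. Of 15 macrophage and leukocyte markers 6 lay under the floor in every array, Adgre1 and Ptprc among them, and 9 lay above it in at least 1. The brightest was Cd53, at 615 in knockout and 793 in wild-type co-culture, against 719 in knockout and 663 in wild-type separate culture. Of 12 markers of epithelium and colon carcinoma, 10 lay under the floor in every array, including Cdh1, Krt8 and Krt18. Spint1 was the brightest, at 869 in knockout and 776 in wild-type co-culture, against 667 in knockout and 750 in wild-type separate culture. Liver sinusoidal endothelium, which is known to express Igfbp7, had 10 of 11 markers under the floor in every array, among them Stab2, Lyve1 and Pecam1.

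IGF1 and IGF2 are secreted growth factors that signal through the receptor tyrosine kinase IGF1R, which phosphorylates adaptors such as IRS1 and so drives the PI3K and Akt chain. IGF2R, the cation-independent mannose 6-phosphate receptor, takes up IGF2 and sends it to lysosomes without this signal. The binding proteins hold IGFs outside the cell, prolong their life and limit or present them to the receptor. IGFBP7 binds IGF only weakly and is also known as a matrix-associated protein of vessels. In the liver, circulating IGF1 comes mainly from hepatocytes, and macrophages of many tissues also make it.

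The sequences upstream of the 3 genes whose signals differed at least 2-fold between the cultures in both genotypes are shown first, so that their promoters can be compared. They are the 250 bases before the annotated start of Igfbp7 (chr5:77408046-77408295, minus strand), Igfbp2 (chr1:72824230-72824479, plus strand) and Irs1 (chr1:82291440-82291689, minus strand), from RefSeq on GRCm38.p6. Capitals mark matches, on either strand, to GGGCGG, the core of the GC box bound by Sp factors, or to CACGTG, the palindromic E-box.
Igfbp7: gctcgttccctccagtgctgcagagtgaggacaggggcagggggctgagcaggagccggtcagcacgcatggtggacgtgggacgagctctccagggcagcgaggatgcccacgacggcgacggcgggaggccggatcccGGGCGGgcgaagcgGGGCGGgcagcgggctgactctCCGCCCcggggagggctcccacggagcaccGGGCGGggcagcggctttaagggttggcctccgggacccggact
Igfbp2: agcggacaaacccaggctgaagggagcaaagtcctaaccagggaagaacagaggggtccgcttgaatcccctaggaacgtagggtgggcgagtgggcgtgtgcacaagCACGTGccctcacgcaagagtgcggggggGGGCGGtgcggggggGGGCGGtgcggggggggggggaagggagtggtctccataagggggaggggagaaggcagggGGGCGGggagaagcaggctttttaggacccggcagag
Irs1: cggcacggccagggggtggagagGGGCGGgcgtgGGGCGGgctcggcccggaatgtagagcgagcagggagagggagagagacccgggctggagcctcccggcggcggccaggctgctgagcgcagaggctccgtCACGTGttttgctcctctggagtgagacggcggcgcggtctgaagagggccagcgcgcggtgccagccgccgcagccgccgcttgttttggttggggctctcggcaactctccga
All 3 windows were rich in G and C, at 74% for Igfbp7, 67.2% for Igfbp2 and 72.4% for Irs1, against a median of 52.4% over 32851 such windows. The share in the other members ran from 49.6% for Igfbp6 to 77.6% for Igf1r, so it was not particular to these 3. GGGCGG occurred 4 times in the Igfbp7 window, 3 times in that of Igfbp2 and 2 times in that of Irs1, and 32.7% of all windows held it. CACGTG occurred once each upstream of Igfbp2 and Irs1, with its first base 142 and 115 bases before the start, and 6.02% of all windows held it. TGANTCA, a looser pattern than the AP-1 site (6.75% of all windows), the forkhead motif GTAAACA (3.17%) and TATAAA (12.4%) did not occur in these 3 windows. A restricted form of the NF-kappaB consensus (1.41%) did not occur in them either. That form fixes all letters but 2. Other variants of the NF-kappaB site were not searched for, so their absence is not shown. Of the other members, TATAAA occurred upstream of Igfbp4 and Igfbp6, CACGTG and GGGCGG upstream of Igf2r, GGGCGG upstream of Igf1r and TGANTCA upstream of Igf1 and in a second annotated window of Igfbp2. The Igf1 match reads TGAATCA, which lacks the C or G in the middle of the AP-1 site, and the Igfbp2 match reads TGAGTCA. The matches are descriptions of these letters only.

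**Figure D1:**
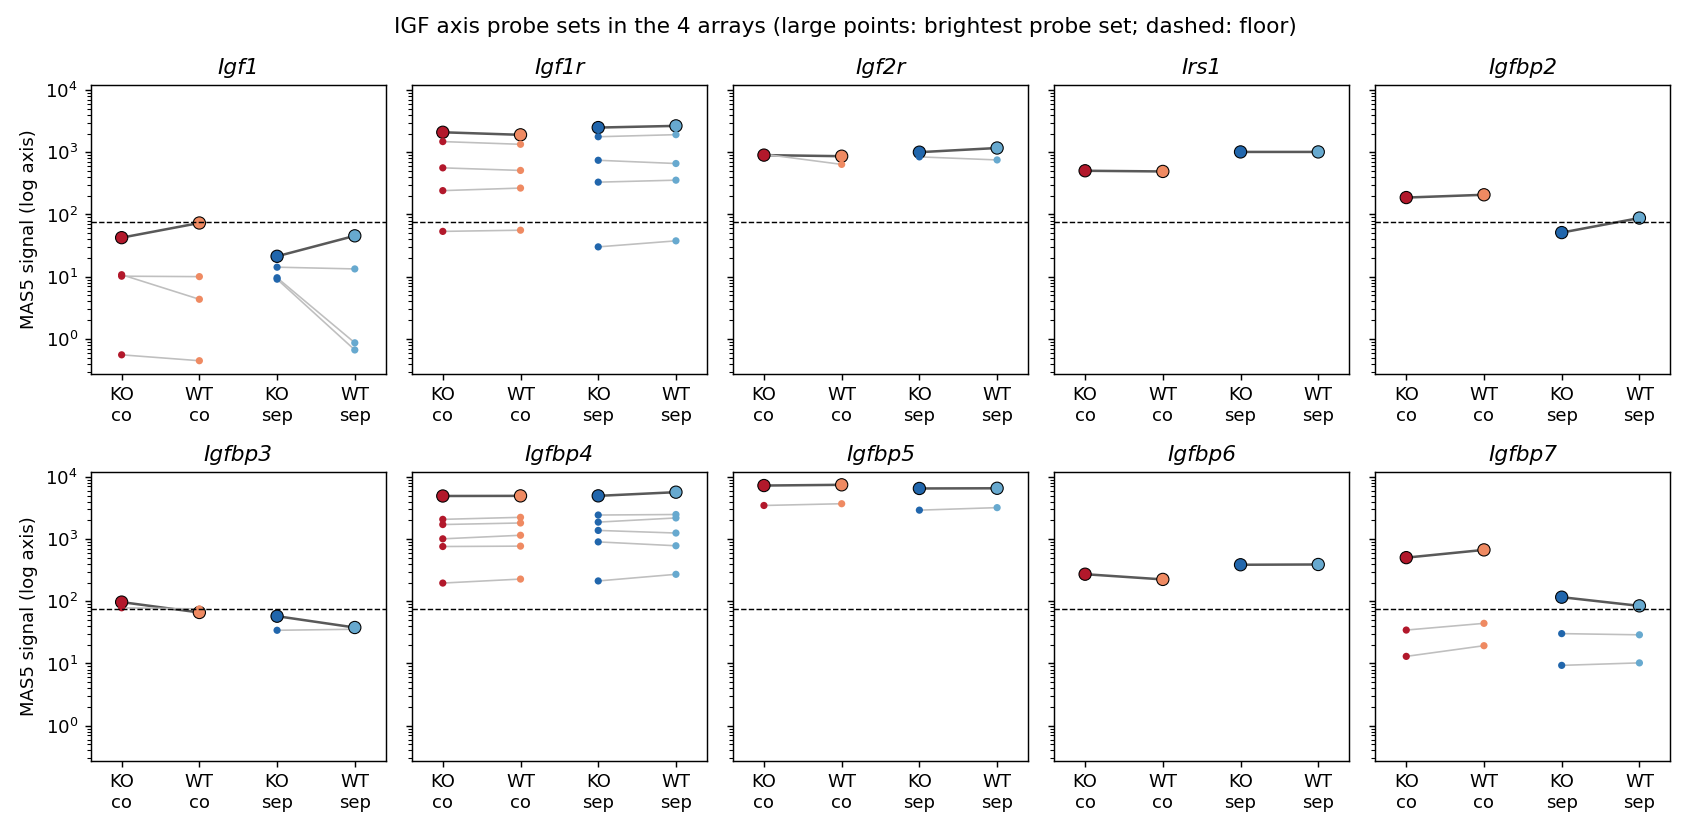
MAS5 signal (log axis) of every probe set of the 10 IGF axis genes in the 4 arrays: knockout (KO) and wild-type (WT) co-culture (co) in red and orange, knockout and wild-type separate culture (sep) in dark and light blue. Large points are a gene's brightest probe set, lines join the arrays of one culture condition, and the dashed line is the floor of 76.1. Igfbp7 and Igfbp2 lie higher in co-culture than in separate culture of the same genotype, Irs1 and Igfbp6 lower, and Igf1 is under the floor throughout.

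Among the binding proteins, Igfbp7 and Igfbp2 had higher signals in co-culture with Kupffer cells of either genotype, and Irs1, the adaptor below the receptor, had lower ones. Igfbp4 and Igfbp5 were bright and nearly level, Igfbp6 was lower, Igfbp3 was near the floor, and the ligand gene Igf1 was not above it. In knockout 9 of the 10 genes could be compared, since one or both arrays exceeded the floor. Igfbp7 and Igfbp2 were 2-fold or more higher, where 0.67% of 10444 genes were, and Irs1 was 2-fold or more lower, where 0.574% were. In wild type 8 could be compared, and Igfbp7 and Igfbp2 were again past 2-fold upward, where 0.701% of 10417 genes were, and Irs1 downward, where 0.538% were. Past 2-fold in both genotypes were 0.404% of 10637 genes upward and 0.216% downward. The median log2 ratio was -0.01 over the 9 genes and -0.02 over all genes in knockout, and -0.32 over the 8 genes and -0.02 over all genes in wild type.

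Igf1, the ligand, was measured by 4 probe sets, and none rose above the floor in any array. Its brightest probe set read 42.4 in knockout and 73.0 in wild-type co-culture, against 21.3 in knockout and 45.4 in wild-type separate culture. The other probe sets read between 0.447 and 14.2, and no ratio is given for Igf1. Beside it, hepatocyte markers summed to 868 in knockout and 977 in wild-type co-culture, against 1045 in knockout and 1062 in wild-type separate culture. Of 8 on the array Cyp2e1, Fgb and Apoc3 were under the floor in every array. The other 5, Alb, Apoa1, Apoa2, Ttr and Mup3, were in the additive fit used for the pathway genes. For culture 0 of the 5 passed an adjusted p of 0.05, where 8.35% of 10287 genes did. Their log2 differences lay between -0.64 (Apoa1) and 0.14 (Apoa2). For genotype, where 0.583% of 10287 genes passed, Mup3 alone did, lower in knockout by a log2 difference of -1.21 (limma, adjusted p = 0.00792). Its knockout co-culture array, at 73.8, was under the floor. When the fit did not pool the spread along signal, no probe set on the array passed for genotype.

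Igf1r, the signalling receptor, had slightly lower signals in co-culture by all 4 of its probe sets above the floor. The brightest probe set read 2095 in knockout and 1906 in wild-type co-culture, against 2493 in knockout and 2654 in wild-type separate culture. The log2 ratio was -0.25 in knockout and -0.48 in wild type. The other 3 probe sets above the floor had log2 ratios between -0.45 and -0.26 in knockout and between -0.51 and -0.37 in wild type. One more probe set, under the floor in every array, read 53.5 and 55.9 in knockout and wild-type co-culture against 30.2 and 37.7 in knockout and wild-type separate culture.

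Igf2r, the scavenging receptor of IGF2, was measured by 2 probe sets that gave different pictures. The brighter one read 900.0 in knockout and 864 in wild-type co-culture, against 1003 in knockout and 1170 in wild-type separate culture, at log2 ratios of -0.16 and -0.44. The second read 930.0 in knockout and 639 in wild-type co-culture, against 843 in knockout and 753 in wild-type separate culture. It was thus higher in co-culture with knockout cells (log2 ratio 0.14) and lower with wild-type cells (-0.24).

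Irs1, which couples the IGF and insulin receptors to PI3K, had 1 probe set. Its signal was 504 in knockout and 492 in wild-type co-culture, against 1012 in knockout and 1013 in wild-type separate culture. The arrays of a culture condition were close to each other. The signal was 2.01-fold lower in knockout and 2.06-fold lower in wild type, so this gene lay just inside the 2-fold limit, and the mean log2 ratio was -1.02 ± 0.03 (SD over the 2 genotypes).

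Igfbp7 had the largest ratio of the 10 genes. Its brightest probe set read 502 in knockout and 669 in wild-type co-culture, against 116 in knockout and 84.3 in wild-type separate culture. The separate-culture arrays were close to the floor. The signal was 4.32-fold higher in knockout and 7.93-fold higher in wild type, and the mean log2 ratio was 2.55 ± 0.62 (SD over the 2 genotypes). Counted from the highest ratio it ranked 9 of 10444 genes in knockout and 2 of 10417 in wild type. The other 2 probe sets of Igfbp7 were under the floor in every array. One read 34.4 and 44.1 in knockout and wild-type co-culture, against 30.2 and 28.9 in knockout and wild-type separate culture. The other read between 9.33 and 19.3, and no ratio is given for either. By the median over its 3 probe sets Igfbp7 was therefore at the floor in all arrays and had no ratio, and with the floor at 152, which is 2 times the median, its mean log2 ratio was 1.93.

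Of 11 sinusoidal endothelial markers, set beside Igfbp7, 10 were under the floor in every array, so their summed signal, 392 in knockout and 412 in wild-type co-culture against 366 in knockout and 383 in wild-type separate culture, holds much signal that was not ordered. Egfl7, an endothelial secreted protein, was the only one of them above the floor, at 203 in knockout and 200.4 in wild-type co-culture, against 190.2 in knockout and 246 in wild-type separate culture. Stab2, Lyve1, Pecam1 and Kdr were under the floor in every array, but so were Adgre1 and Clec4f, although every group held Kupffer cells. The cell source of the Igfbp7 signal was not tested.

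Igfbp2, a binding protein that also attaches to integrins through an RGD motif, read 187 in knockout and 207 in wild-type co-culture, against 51.2 in knockout and 87.7 in wild-type separate culture. In wild type the signal was 2.37-fold higher, and in knockout, where the separate-culture array was under the floor, at least 2.46-fold higher. Ranks from the highest ratio were 37 of 10444 in knockout and 48 of 10417 in wild type. With the floor at 152 the mean log2 ratio over the genotypes was 0.37 in place of 1.27. Igfbp2 and Igfbp5 are neighbouring genes on chromosome 1 in GRCm38.p6.

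Igfbp5, a binding protein of connective tissue and muscle, was nearly level beside its neighbour. Its brighter probe set read 7231 in knockout and 7427 in wild-type co-culture, against 6489 in knockout and 6536 in wild-type separate culture. The log2 ratios of its 2 probe sets lay between 0.16 and 0.25 over both genotypes.

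Igfbp3, the main carrier of IGFs in serum, was near the floor. Its brighter probe set read 96.9 in knockout and 66.0 in wild-type co-culture, against 57.5 in knockout and 37.8 in wild-type separate culture. Only the knockout co-culture array was above the floor, at least 1.27-fold higher than its separate culture. The second probe set read 78.5 in knockout and 75.3 in wild-type co-culture, against 34.2 in knockout and 35.5 in wild-type separate culture, which gave at least 1.03-fold in knockout. The values without a floor (mean log2 ratio 0.76 for the brighter probe set) rest on signals in a range that was not ordered. Igfbp1, the neighbour of Igfbp3 on chromosome 11 and a classical insulin-repressed gene of hepatocytes, was under the floor in every array.

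Igfbp4, which mostly restrains IGF action and is cleaved by the protease PAPP-A, had 6 probe sets above the floor. The brightest read 4911 in knockout and 4933 in wild-type co-culture, against 4937 in knockout and 5656 in wild-type separate culture. All 6 had log2 ratios below 0 in both genotypes, between -0.45 and -0.01 in knockout and between -0.27 and -0.02 in wild type. Pappa and Pappa2 were under the floor in every array.

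Igfbp6, a binding protein with a preference for IGF2, had 1 probe set and lower signals in co-culture. It read 272 in knockout and 224 in wild-type co-culture, against 386 in knockout and 390 in wild-type separate culture. The signal was 1.42-fold lower in knockout and 1.74-fold lower in wild type. At a limit of 1.5-fold it would join the wild-type list, where 3.39% of 10417 genes were 1.5-fold or more lower.

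**Figure D2:**
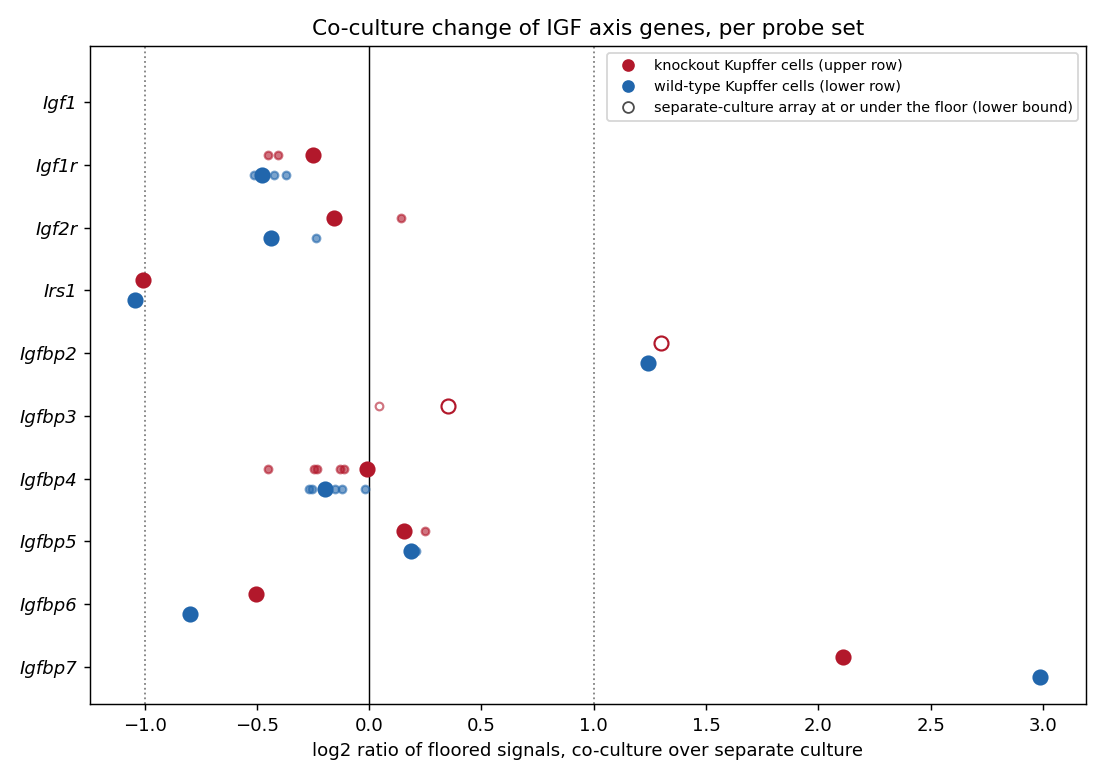
Log2 ratio of floored signals, co-culture over separate culture, for each probe set of the 10 genes above the floor: knockout Kupffer cells in red (upper row of each gene) and wild type in blue (lower row). Large points are the brightest probe set, open points lower bounds, and dotted lines mark 2-fold. Igfbp7 reaches 2.11 in knockout and 2.99 in wild type, while all Igf1r and Igfbp4 probe sets shown lie below 0.

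Among the 7 genes above the floor in all 4 arrays, the ratio of Igfbp7 differed most between the genotypes, at a log2 difference of -0.88 (knockout minus wild type). A difference of that size or larger was seen for 1.52% of 9727 genes above the floor in all arrays, and for 7.79% of the 1117 of them whose dimmest array, like that of Igfbp7, lay under 2 times the floor. The differences of the other 6 genes had sizes that 23.6% or more of the 9727 genes reached. With 1 array per group none of these differences was tested.

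**Figure D3:**
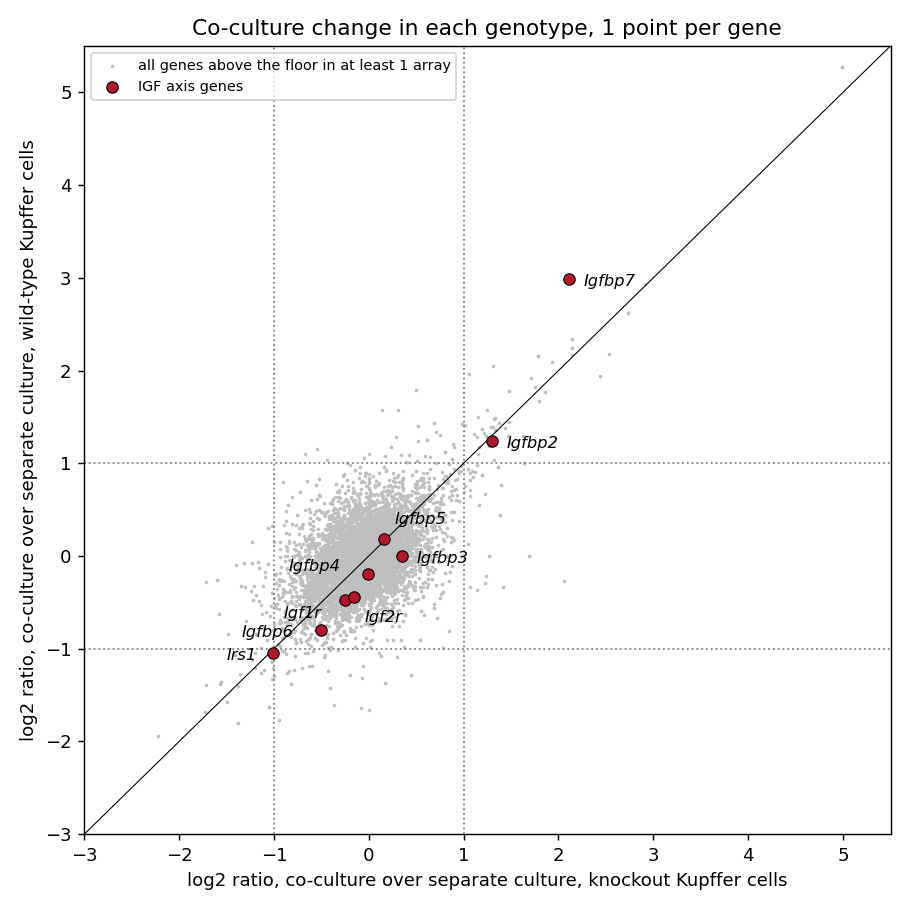
Each point is a gene above the floor in at least 1 array, by its brightest probe set: log2 ratio of co-culture over separate culture with knockout Kupffer cells (x axis) and with wild-type Kupffer cells (y axis). IGF axis genes are red, dotted lines mark 2-fold, and the solid line marks equal ratios. Igfbp7 lies above that line, and Irs1 and Igfbp2 lie close to it.

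Whether the loss of Dectin-2 changed the members was tested apart from the culture, a contrast that was not used to choose them. An additive limma fit over the 4 arrays, with culture as a block and 1 residual degree of freedom per probe set, covered 22972 probe sets above the floor in at least 2 arrays, 18 of them from 8 of the 10 genes. After Benjamini-Hochberg adjustment over all probe sets, 0 of the 18 passed 0.05, where 0.544% of all probe sets did. Of all 22972 probe sets 2238 had an unadjusted limma p under 0.05, and 1 of the 18 did. That one was the second Igf2r probe set, at a log2 difference of 0.35 ± 0.11 (SE, knockout minus wild type), higher in knockout in both culture conditions, with an adjusted p of 0.197. Igfbp7 was lower in knockout than in wild type in co-culture (log2 difference -0.41) and higher in separate culture (0.46), so its fitted difference of 0.03 ± 0.22 averages opposite values (SE, limma, adjusted p = 0.990). That SE is set mostly by the spread pooled over other probe sets and does not show how far these values lie apart. Irs1 had a fitted difference of 0.02 ± 0.11 (SE, limma, adjusted p = 0.983). Within co-culture alone, 0 of 9 genes differed by 1.5-fold between knockout and wild type, where 2.99% of 10399 genes did, and within separate culture 0 of 8, where 2.79% of 10362 genes did.

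The other genes of the pathway came from 7 lists of ligands, binding proteins, proteases, receptors and downstream steps. The same fit, with genotype as a block, tested co-culture against separate culture. Of 94 such genes on the array, 67 were in the fit, 8 rose and 5 fell at a limma adjusted p under 0.05, and 54 did not pass. These 13 are 19.4% of the 67, while of 10287 genes 8.35% passed, 3.2% upward and 5.15% downward. The lists were chosen with earlier results of these data known, so these shares do not test for an excess. The median log2 difference was -0.01 over the 67 genes and 0.00476 over all probe sets in the fit. The fit pools the spread along signal, and without that trend 0 of the 13 passed, with 15 of 67 genes and 3706 of 22972 probe sets at an unadjusted p under 0.05. After quantile normalization 9 of the 13 passed, without Stc1, Grb2, Pik3cd and Eif4ebp1.

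Igf2, the other IGF ligand, read 775 in knockout and 781 in wild-type co-culture, against 734 in knockout and 888 in wild-type separate culture, and did not pass (limma, adjusted p = 0.845). In the list of other binding proteins and related secreted proteins, 5 of 11 genes were in the fit, 1 rose and 1 fell. Ccn1, a matrix-associated CCN protein, rose 1.34-fold, with 5099 in knockout and 5534 in wild-type co-culture against 3768 in knockout and 4158 in wild-type separate culture (limma, adjusted p = 0.00021). Ccn4, of the same family, fell by 0.59 ± 0.10 on the log2 scale (SE, limma, adjusted p = 0.00026). Of 9 proteases and inhibitors in the fit, 0 rose and 1 fell, the PAPP-A inhibitor Stc1, by 0.26 ± 0.08 (SE, limma, adjusted p = 0.0436). Stc1 did not pass with log2(signal + 1) (limma, adjusted p = 0.0543).

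Among receptors, adaptors and proximal regulators, 3 of 15 genes rose and 1 fell. Socs3, a feedback inhibitor of cytokine and insulin receptor signalling, read 167 in knockout and 171 in wild-type co-culture, against 89.8 in knockout and 74.3 in wild-type separate culture, the last under the floor. Its fitted change was 1.03 ± 0.22 on the log2 scale (SE, limma, adjusted p = 0.00252), and it was 0.15 and did not pass with the floor at 152 (limma, adjusted p = 0.647). Lrp1, an endocytic receptor that also binds IGFBP3, rose by 0.50 ± 0.09 and the adaptor Grb2 by 0.36 ± 0.11 (SE, limma adjusted p-values of 0.000194 and 0.0478). Grb2 did not pass with the floor at 152 (limma, adjusted p = 0.0521) or a common median (adjusted p = 0.0895). The integrin chain Itgav fell by 0.25 ± 0.07 (SE, limma, adjusted p = 0.0263). Insr, the insulin receptor, did not pass, at a log2 difference of 0.11 ± 0.15 (SE), and Irs2, the paralogue of Irs1, was above the floor only in the knockout separate-culture array, at 97.3.

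In the PI3K, Akt and mTOR chain 1 of 19 genes rose and 1 fell. Pik3cd, the PI3K catalytic subunit of leukocytes, read 177 in knockout and 225 in wild-type co-culture, against 94.7 in knockout and 137 in wild-type separate culture, a rise of 0.81 ± 0.22 on the log2 scale (SE, limma, adjusted p = 0.0221) that did not pass with the floor at 152 (adjusted p = 0.134). Eif4ebp1, a repressor of translation that mTOR inhibits, fell by 0.26 ± 0.08 (SE, limma, adjusted p = 0.038). Foxo1, the forkhead factor restrained by Akt, had a log2 difference of -0.50 ± 0.17 and did not pass (SE, limma, adjusted p = 0.0665). Of 13 FoxO target genes in the fit 2 rose and 0 fell. They were Pdk4, which restrains glucose oxidation, by 0.39 ± 0.07, and Trib1, a pseudokinase, by 0.32 ± 0.07 (SE, limma adjusted p-values of 0.000526 and 0.00372), and Trib1 did not pass with a common median (limma, adjusted p = 0.0881).

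The growth hormone axis held the largest of these changes. Cish, an inhibitor of STAT5 signalling, read 191 in knockout and 257 in wild-type co-culture, against 60.2 in knockout and 91.4 in wild-type separate culture, with the knockout separate-culture array under the floor. It rose by 1.41 ± 0.22 on the log2 scale (SE, limma, adjusted p = 6.73e-05), and by 0.54 with the floor at 152 (limma, adjusted p = 0.0299). Ghr, the growth hormone receptor, fell by 0.42 ± 0.08 (SE, limma, adjusted p = 0.000418), with 1677 in knockout and 1386 in wild-type co-culture against 2136 in knockout and 1961 in wild-type separate culture. Over all 7 lists 0 of 67 genes passed the genotype test, where 0.583% of 10287 genes did, with 8 of them and 2238 of 22972 probe sets at an unadjusted limma p under 0.05.

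**Figure D4:**
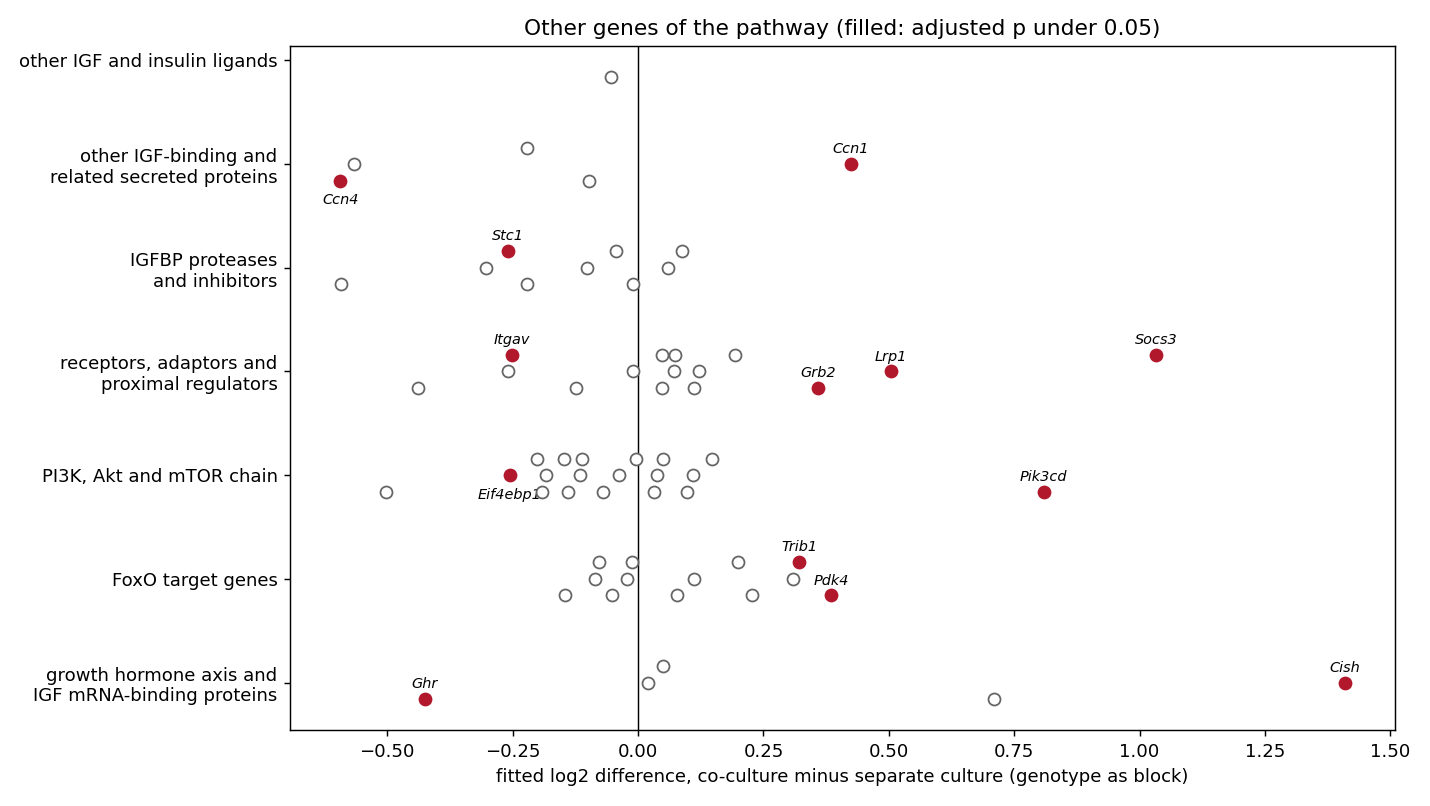
Fitted log2 difference, co-culture minus separate culture with genotype as a block, for the genes of each pathway list that were in the fit, 1 point per gene. Filled points passed an adjusted p of 0.05 and are named. Cish, Socs3 and Pik3cd lie farthest to the right, and Ccn4 lies farthest to the left.

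Markers of other cells moved with the culture in part, and their part in these results was not tested. Of 13 stellate cell, fibroblast and matrix markers 7 were in the fit, 0 rose and 3 fell, and the summed signal was 13628 in knockout and 13358 in wild-type co-culture, against 16726 in knockout and 17208 in wild-type separate culture. Des fell most, by 0.82 ± 0.08 on the log2 scale (SE, limma, adjusted p = 2.94e-08). Acta2 fell by 0.66 ± 0.19 (SE, limma, adjusted p = 0.0279) and did not pass after quantile normalization (limma, adjusted p = 0.0708). Col3a1, a fibrillar collagen, fell by 0.52 ± 0.07 (SE, limma, adjusted p = 1.03e-05), while Col1a1, Col1a2, Dcn and Lum were under the floor in every array. Sparc, the brightest of the list, did not pass (limma, adjusted p = 0.105). Of 9 macrophage and leukocyte markers in the fit 1 rose, C1qb, and the summed signal was 2155 in knockout and 2267 in wild-type co-culture, against 2149 in knockout and 1862 in wild-type separate culture. Without a trend none of these 4 calls passed (limma, adjusted p = 0.171 for Col3a1 and adjusted p = 0.206 for C1qb). Of 9 cell cycle genes in the fit 0 passed, with Mki67 at 7248 in knockout and 7131 in wild-type co-culture against 6519.6 in knockout and 6949 in wild-type separate culture.

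Genes whose profile over the 4 arrays was most like that of Igfbp7 were Ptgs2, Cd82, Selp, Nfkbiz and Ier3, among 9726 other genes above the floor in all arrays. Likeness was the Euclidean distance between log2 signals centred on each gene's own mean, which was 0.58 for Ptgs2, the inducible cyclooxygenase, and 0.81 for Ier3, a stress-response gene. Their co-culture ratios lay between 3.28-fold and 7.55-fold in knockout and between 3.78-fold and 7.65-fold in wild type. All 4 points of each profile come from the same arrays, so this is a description.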

How the data were processed

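Expression was measured on 4 one-colour arrays, 1 per group, from 20 ng of total RNA each, per the labels' protocols. The authors deposited linear probe set intensities, computed with Affymetrix Expression Console 1.4 and MAS5, per the submitters' processing notes. The 2% trimmed means of the arrays were 497 to 498, so values are relative within an array. No detection calls were used.

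Of 45037 probe sets, 34945 had 1 gene symbol in the platform annotation, 932 several and 9160 none listed. A RefSeq gene table (GRCm38.p6) held the Entrez numbers of 34741 and changed 0 symbols. Genes were represented by their brightest probe set (mean of log2 signals). Signals were raised to the floor of 76.1, the median of all values, and log2-transformed. A ratio with one array not above the floor is a lower bound, and with neither above it none is given. Levels of different probe sets were not compared.

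No test was made within a genotype or within a culture condition. The additive fit used limma 3.58.1 in R 4.3.3 (lmFit, eBayes with trend) and assumes the same culture effect in both genotypes. With 1 residual degree of freedom, a probe set's own spread is only how far its culture change differs between the genotypes. This spread was moved toward that of probe sets of like signal, with a prior of 26.8 degrees of freedom. The SEs and p-values thus do not measure the spread between repeated arrays of a group. Nothing says that the arrays came from separate experiments. The fit was also run on simulated arrays with known changes, whose spread was set by signal alone. Such arrays meet the assumption of a trend along signal, so they could not check it. The number of arrays limits the precision. Members, gene lists and tests were chosen with earlier results of these data known, and the searched motifs after the windows had been seen. Named from a pathway list were genes past the fit's threshold or 1.5-fold apart the same way in both genotypes, at most 6 per list, from a marker list the brightest 2 and any past 2-fold in both genotypes, and the 5 genes most like the leading member. Insr, Irs2, Igf2, Foxo1, C1qb, Des, Acta2, Apoa1, Ttr and Mup3 were chosen after their values were seen. So were genes given as under the floor, and not all genes the rule allows are printed. Upstream sequences matched all 10 members. Alternatives were other floors and pseudocounts, a common median, quantile normalization, the median over probe sets, a limit of 1.5-fold, other filters and no trend.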

Additional observations from a re-analysis of the deposited data

Results flagged for a closer look

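The second Igf2r probe set moved in opposite directions in the genotypes: its log2 ratio of co-culture over separate culture was 0.14 with knockout and -0.24 with wild-type Kupffer cells, a difference of 0.38. With 1 array per group the difference was not tested. The brighter Igf2r probe set was lower in co-culture in both genotypes, at -0.16 in knockout and -0.44 in wild type. Groups of 1 array allow no check for an array that stands apart from its group.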

How the results depend on the processing

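The labels give no replicate numbers to pair by, the fit holds genotype as a block when it compares the cultures, and with 1 array per group none could be left out. Of the 10 genes, 3 were at least 2-fold apart in each genotype, and between 2 and 3 in each under the alternatives that kept this limit. At a limit of 1.5-fold, 3 were apart in knockout and 4 in wild type. Igfbp7 left the 2-fold list with the median over probe sets and Igfbp2 with the floor at 2 times the median. Irs1 left it with log2(signal + 32) and, in knockout, with quantile normalization. No member's ratio changed sign in either genotype under the alternatives run. The limma fit called 1619 probe sets for culture, but 884 after quantile normalization, 14 without a trend and 0 without a filter (3058 at an unadjusted p under 0.05). For genotype it called 125, but 208 with log2(signal + 32), 200 with probe sets above the floor in all arrays, 11 after quantile normalization, and 0 both without a trend and without a filter (1596 and 1709 at an unadjusted p under 0.05). The cause was not tested. With a common median, 567 of the culture calls were higher and 1809 lower, against 703 and 916 in the fit reported, and the median log2 ratio of genes above the floor moved to -0.13 in wild type from -0.02. The genotype calls split into 62 higher and 93 lower with a common median and into 7 and 4 after quantile normalization, against 64 and 61. Among the other pathway genes 13 passed for culture, 0 without a trend (15 of 67 at an unadjusted p under 0.05) and 0 without a filter (14 of 94), and between 10 and 18 under the other settings. The settings for these genes and for the members' genotype test were chosen after seeing the data. For the members, 0 passed the genotype test under every alternative, at a lowest adjusted p between 0.12 and 1. Signals near the floor limit Igfbp3, Igf1, Igfbp2 and the separate-culture level of Igfbp7.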
